A study of Homo sapiens with 2 samples.

Results

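The genes described here are 10 receptors through which hormones, nutrients and nerves act on pancreatic islet cells: GLP1R, GIPR, GCGR, SSTR1, SSTR2, SSTR3, SSTR5, FFAR1, ADRA2A and CHRM3. They were chosen by name, and each was found once among the 55797 genes listed for both libraries. RNA-seq was performed on 1 library of live and 1 library of processed cells, both made from the established embryonic stem cell line H1 by stepwise differentiation to Stage 6, when insulin-expressing cells are present. The cultures were split, so that both libraries started from the same unsorted mixture. Live cells gave RNA directly, through the RNeasy kit. Processed cells went through MARIS, that is 4% paraformaldehyde fixation, permeabilization, antibody staining and a sort in which every cell was kept, and their RNA was extracted with a modified RecoverAll kit. The comparison asks whether this handling changes the measured level of a transcript. Fixation, staining, sorting and the extraction kit all differ between the libraries and cannot be told apart. With 1 library per condition there is no replicate check, and no p-value is given.

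All 10 genes encode G protein-coupled receptors. GLP1R and GIPR bind the gut incretins GLP-1 and GIP, GCGR binds glucagon, and all 3 act mainly through Gs to raise cyclic AMP. The somatostatin receptors SSTR1, SSTR2, SSTR3 and SSTR5, and the adrenergic receptor ADRA2A, act through Gi to lower cyclic AMP and restrain hormone release. FFAR1, a receptor for long-chain fatty acids, and CHRM3, the muscarinic receptor for acetylcholine, act mainly through Gq, phospholipase C and calcium.

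The sequences upstream of 4 receptors are shown because these 4 transcripts were above 0 in both libraries with values that stood apart by their bounds. Each is the 250 bases before the transcription start in RefSeq (GRCh38.p14), read 5′ to 3′ on the plus strand and located by an exact, single match in GRCh37, the build of the deposited files. They lie at chr19:46171229-46171478 (GIPR), chr17:71160899-71161148 (SSTR2), chr14:38676859-38677108 (SSTR1) and chr10:112836537-112836786 (ADRA2A). Capitals mark matches on either strand to 3 short motifs. The first is TGACG, the core of the cyclic AMP response element. The second is TATAAA, the letters of the TATA box. The last is the E-box CACGTG.
GIPR: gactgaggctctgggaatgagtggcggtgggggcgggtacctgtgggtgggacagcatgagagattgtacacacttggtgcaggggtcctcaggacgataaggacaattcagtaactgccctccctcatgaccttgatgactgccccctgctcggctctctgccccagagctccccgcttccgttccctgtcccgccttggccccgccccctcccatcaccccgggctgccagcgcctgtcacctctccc
SSTR2: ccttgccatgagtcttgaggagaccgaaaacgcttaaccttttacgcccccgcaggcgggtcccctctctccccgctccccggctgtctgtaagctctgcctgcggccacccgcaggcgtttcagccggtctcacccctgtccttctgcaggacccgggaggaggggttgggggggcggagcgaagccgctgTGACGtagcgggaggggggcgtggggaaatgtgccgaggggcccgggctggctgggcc
SSTR1: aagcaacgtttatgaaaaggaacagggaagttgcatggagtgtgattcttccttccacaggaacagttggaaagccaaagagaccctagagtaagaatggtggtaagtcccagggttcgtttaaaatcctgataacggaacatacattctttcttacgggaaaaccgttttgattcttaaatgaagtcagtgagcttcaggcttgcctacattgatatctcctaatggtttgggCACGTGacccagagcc
ADRA2A: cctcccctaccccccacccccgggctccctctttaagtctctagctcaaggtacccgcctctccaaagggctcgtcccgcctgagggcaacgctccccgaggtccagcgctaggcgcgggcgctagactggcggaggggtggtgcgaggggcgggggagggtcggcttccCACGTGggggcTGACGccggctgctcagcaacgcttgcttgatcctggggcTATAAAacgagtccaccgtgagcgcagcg
The core TGACG stood 58 to 54 bases before the start of SSTR2 and 69 to 65 bases before that of ADRA2A, and 21.2% of all 35116 such windows in RefSeq hold it. The full element TGACGTCA, which contains this core, was in none of these windows and is in 1.65% of all of them. ADRA2A also had TATAAA at 29 to 24 bases (10.7% of all windows) and CACGTG at 80 to 75 bases. SSTR1 had CACGTG at 16 to 11 bases, a motif in 6.34% of all windows. None of these letters was found before GIPR. The windows of the other receptors, not shown, were searched too. FFAR1 had TGACG at 74 to 70 bases, and no motif was found before GLP1R, GCGR, SSTR3, SSTR5 or CHRM3. A link between motifs and the difference between libraries was not tested. Such matches describe the sequence only. The RefSeq start lay 23 nt upstream of the start of the deposited gene for GIPR, 2 nt for SSTR2, 95 nt for SSTR1 and 3 nt for ADRA2A.

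Levels were deposited as FPKM, a fragment count scaled by exon length and library size, each between a pair of bounds. The live library placed 16004 genes at 1 FPKM or more and the processed library 15957. The FPKM of long single-exon genes gave a size of about 93.9 M fragments for the live and 86.8 M for the processed library. The level of the bounds is not stated, but they matched 2 square roots of the number of fragments. In single-exon genes with at most 20 fragments, the number of fragments computed in this way fell within 0.05 of a whole number for 54.7% of 806 genes in live and 55.5% of 497 genes in processed cells, where an even spread would give 10%. The same number is given for receptors as equivalent fragments. It falls below the true number where reads could not be assigned to 1 transcript. Both libraries contained RNA of many cell types. All 9 endocrine markers reached an FPKM of 1 in at least 1 library, as did all 6 hepatocyte, 5 duct, 6 mesenchyme and 5 pluripotent markers, 5 of 6 neuron, 4 of 5 smooth muscle, 3 of 6 acinar, 1 of 4 endothelium and 2 of 5 macrophage markers. The summed FPKM of the endocrine markers was 2332 in live and 2314 in processed cells, but CHGA made up 76.9% and 75.2% of it, and its processed value of 1741 carries a status of FAIL, with bounds of 0 and 4712. Without CHGA the sum over the other 8 was 538 and 573. Summed FPKM was 2592 and 2832 for hepatocyte, 583 and 552 for duct, 78.2 and 79.4 for mesenchyme, 204 and 170 for pluripotent, 174 and 151 for neuron, 114 and 106 for smooth muscle, 20.4 and 25.7 for acinar and 2.37 and 2.31 for endothelium markers. It was 5.89 and 1.63 for macrophage markers, of which AIF1, CD14 and CD163 were listed at 0 in processed cells. The other macrophage markers did not fall to 0. CD68 had 0.830 FPKM in live and 0.703 in processed cells, and CSF1R had 0.498 and 0.923 FPKM, with overlapping bounds for both. Which cells carried the receptors was not tested, and in such mixtures fewer cells of a type and less RNA per cell cannot be told apart.

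Of the 10 receptors, 5 reached an FPKM of 1, namely GIPR, SSTR2, ADRA2A, SSTR1 and SSTR5, and the other 5 were below 1 in both libraries. Of these 5 receptors, 0 lay past 2-fold on the scale log2((processed FPKM + 1) / (live FPKM + 1)), where 12.8% of the 17326 genes that reached 1 FPKM in either library did. A gene below 1 FPKM in both libraries cannot pass 2-fold on this scale, so the other 5 receptors are not counted here. The bounds of the libraries were separate for 5 of 10 receptors, compared with 64.2% of the 30603 genes above 0 in either library, and for 4 of the 5 receptors that reached 1, compared with 71.8% of the 17326 genes. Among all genes above 0, 22.0% were higher and 42.2% lower in processed cells with separate bounds. Of the receptors 1 was higher, GIPR, and 4 were lower, namely SSTR1, SSTR2, ADRA2A and FFAR1. Among the 17326 genes these shares were 28.1% and 43.7%. FFAR1 counts as lower because its processed value and both bounds are 0, which give no measure of precision. The shares of all genes also include genes listed at 0 in 1 library. The median log2 ratio of the 5 receptors that reached 1 was -0.21, and over the 17326 genes it was -0.09. Over all 10 it was -0.15, where the pseudocount draws the ratios of the 5 receptors below 1 toward 0, and it was -0.09 for the 9 receptors without FFAR1, which is listed at 0 in processed cells.

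**Figure D1:**
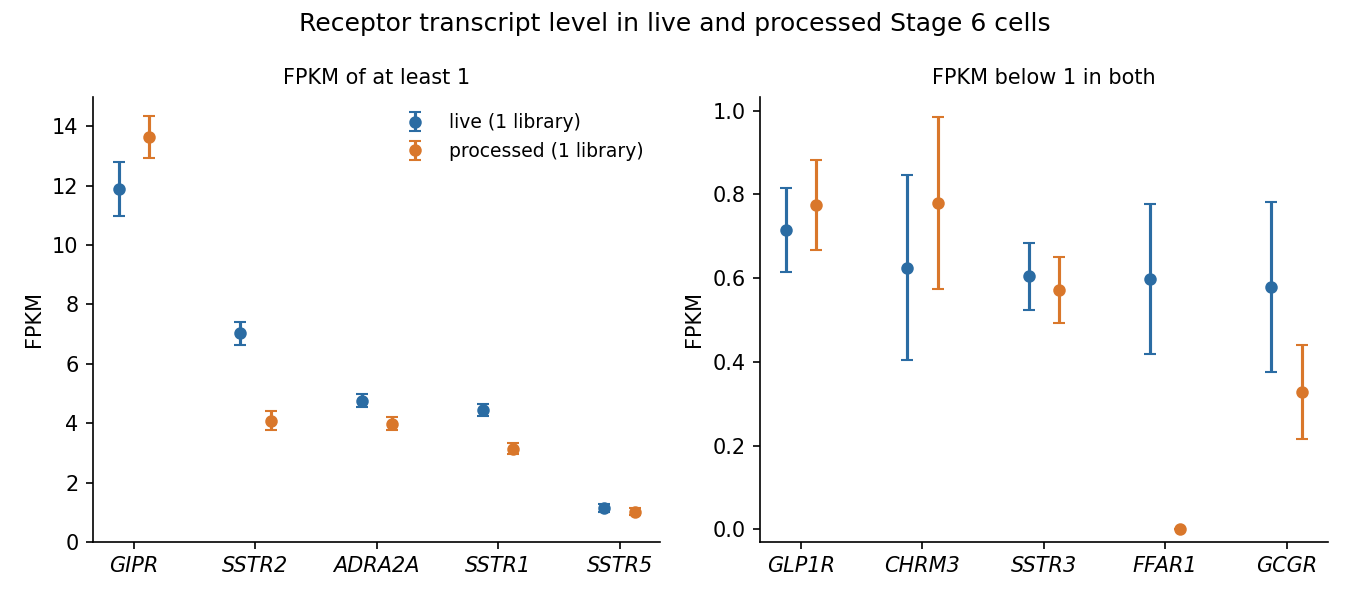
FPKM of each receptor (vertical axis) in the live library (blue) and the processed library (orange), with the deposited lower and upper bounds as bars. The left panel holds the 5 receptors that reached 1 FPKM, from GIPR at 11.9 and 13.6 to SSTR5 at 1.16 and 1.02, and the right panel the 5 below 1, on its own scale, where FFAR1 is listed at 0 in processed cells.

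Among the receptors for the glucagon family of peptides, GIPR was the most abundant transcript and the highest of all 10 receptors in both libraries. GIPR (ENSG00000010310.4, chromosome 19, 46171502 to 46186982) stood at 11.9 FPKM in the live library, with bounds of 11.0 and 12.8, and at 13.6 FPKM in the processed library, with bounds of 12.9 and 14.3. The bounds did not overlap, and the processed value was 1.15 times the live value, with a range of 1.04 to 1.26 from the bounds alone. The bounds correspond to 681 equivalent fragments in live and 1494 in processed cells, a far larger rise than that of the FPKM. Equivalent fragments can fall below the true number, so they are not read counts, and the reason for this mismatch was not tested. GIPR exceeded 66.1% and 71.1% of protein-coding genes in live and processed cells. GLP1R (ENSG00000112164.5, chromosome 6, 39016574 to 39055519), the receptor through which GLP-1 drugs act, was far lower. It stood at 0.715 FPKM in live (0.614 to 0.816) and 0.775 in processed cells (0.666 to 0.883), from 200 and 205 equivalent fragments. The bounds overlapped, and the ratio of 1.08 had a range from 0.889 to 1.32. On the FPKM scale, which accounts for transcript length, GIPR exceeded GLP1R by 16.6-fold in live and 17.6-fold in processed cells. GCGR (ENSG00000215644.4, chromosome 17, 79762008 to 79771889) was the lowest of the 3, at 0.578 FPKM in live (0.376 to 0.781) and 0.328 FPKM in processed cells (0.216 to 0.439). Its bounds overlapped. The ratio of 0.567, however, had a range from 0.348 to 0.924 that did not reach 1, since overlap of bounds is the stricter reading. With 33 and 35 equivalent fragments, GCGR was among the least precisely measured receptors. GIPR made up 90.2% of the summed FPKM of these 3 receptors in live and 92.5% in processed cells.

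All 4 somatostatin receptors had a lower FPKM in processed cells, and the bounds were separate for the 2 most abundant of them. Among the 30603 genes above 0 in either library, 42.2% were lower and 22.0% higher in processed cells with separate bounds. A lower value is therefore not particular to this family. SSTR2 (ENSG00000180616.4, chromosome 17, 71161151 to 71167185), a target of somatostatin analogs such as octreotide, had 7.03 FPKM in live cells (6.64 to 7.42) and 4.08 in processed cells (3.76 to 4.40). Its processed value was 0.580 times the live value (0.526 to 0.638), which was the lowest ratio with separate bounds among receptors above 0 in both libraries. The equivalent fragments were 1288 and 649. SSTR1 (ENSG00000139874.5, chromosome 14, 38677204 to 38682272) went from 4.44 FPKM (4.24 to 4.64) to 3.15 FPKM (2.96 to 3.33), a ratio of 0.709 (0.659 to 0.763) from 2006 and 1201 equivalent fragments. For the remaining pair the libraries could not be separated at this depth. SSTR5 (ENSG00000162009.7, chromosome 16, 1122756 to 1131454) had 1.16 FPKM in live (1.02 to 1.29) and 1.02 FPKM in processed cells (0.890 to 1.16), a ratio of 0.886 (0.743 to 1.06). SSTR3 (ENSG00000183473.5, chromosome 22, 37600278 to 37608362) had 0.604 FPKM (0.525 to 0.683) and 0.572 FPKM (0.492 to 0.651), a ratio of 0.946 (0.782 to 1.15). For SSTR3 the direction turned when processed values were divided by 0.932, the median ratio of the 14635 genes that reached 1 FPKM in both. SSTR4, the family member outside the list, was listed at 0 in both libraries with a status of LOWDATA, whereas all 10 listed receptors had a status of OK in both. Together the 4 receptors summed to 13.2 FPKM in live and 8.82 in processed cells, and SSTR2 held 53.2% and 46.2% of this sum, SSTR1 33.5% and 35.7%, SSTR5 8.73% and 11.6%, and SSTR3 4.57% and 6.48%. SSTR2 was still the most abundant somatostatin receptor in processed cells, 1.30 times SSTR1 compared with 1.58 times in live cells.

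Of the receptors, SSTR2, SSTR5, GIPR and CHRM3 overlap other listed genes. Those overlapping GIPR (MIR642A) and CHRM3 (CHRM3-AS2, CHRM3-AS1 and RP11-35L17.3) were listed at 0 in both libraries. RP11-143K11.5 spans SSTR2, and its FPKM was also lower in processed cells, 0.702 (0.475 to 0.929) in live and 0.339 (0.283 to 0.395) in processed cells, a ratio of 0.483. The antisense gene SSTR5-AS1 overlaps 5976 nt of SSTR5 and had 2.99 FPKM (2.60 to 3.39) and 2.66 FPKM (2.45 to 2.88), a ratio of 0.890. The sources used here do not state that counting used strand. Fragments of SSTR5 and SSTR5-AS1, and of SSTR2 and RP11-143K11.5, therefore cannot be told apart where they overlap. This limits the levels and ratios of SSTR5 and SSTR2, and overlapping genes are not ranked against each other.

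**Figure D2:**
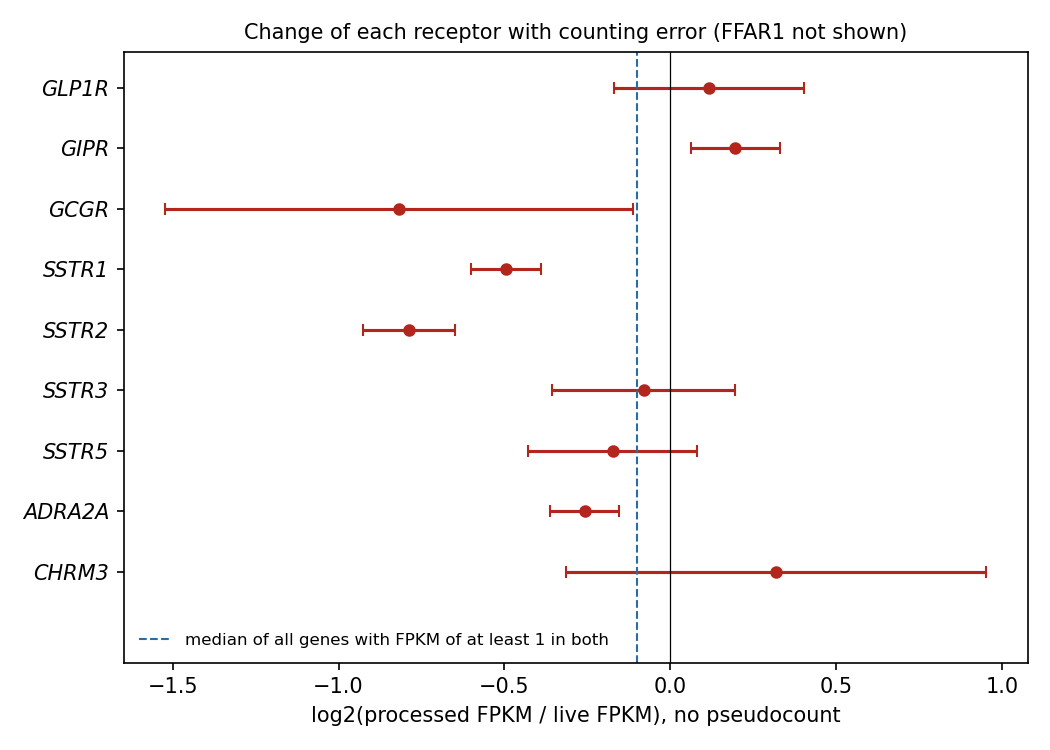
Log2 ratio of processed to live FPKM without a pseudocount (horizontal axis) for the 9 receptors above 0 in both libraries, with bars of 2 SD derived from the deposited bounds, which hold counting and assignment error only. The whole bars of SSTR2, SSTR1, ADRA2A and GCGR lie left of the dashed line, the median of the 14635 genes at -0.10, and GIPR lies right of 0, at 0.20.

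The fatty acid receptor FFAR1 (ENSG00000126266.2, chromosome 19, 35842445 to 35843367) was the member that differed in detection. It had 0.598 FPKM in live cells (0.420 to 0.776) and was listed at 0, with both bounds at 0 and a status of OK, in processed cells. The live value corresponds to 45 fragments. The FPKM of a single fragment was 1.07 times higher in the processed library (median of 690 single-exon genes), so the same abundance would have given 41.9 fragments. Such zeros were common in the processed library. Among genes with 30 to 60 equivalent fragments in live cells and status OK in both libraries, 17.9% of 844 protein-coding genes and 17.3% of 179 single-exon genes were listed at 0 in processed cells. The reverse share, of genes listed at 0 in live cells, was not computed. Of 50 other receptors of islet and gut endocrine cells, 13 were listed at 0 in processed and 4 in live cells, 3 of them in both. Whether the zero is a failed estimate or an absent transcript was not tested, and no fold is given. The deposited gene spans 923 nt and opens just before the start codon. Its first 30 bases (chr19:35842445-35842474, GRCh37, plus strand), shown because they mark what this row leaves out, carry the start codon in capitals.
FFAR1: cggcggccccATGgacctgcccccgcagct
The RefSeq transcript of FFAR1 starts 3640 nt upstream, so that nearly all sequence upstream of the start codon lay outside this row. Of its neighbours on chromosome 19, FFAR3 and GPR42, which are near-identical copies of each other, had 0.0843 and 0.0704 FPKM in live cells and were listed at 0 in processed cells. FFAR2, a receptor for short-chain fatty acids, had 1.01 FPKM (0.867 to 1.16) and 1.13 FPKM (0.969 to 1.29), and CD22 had 0.918 FPKM (0.776 to 1.06) and 1.17 FPKM (1.04 to 1.31), with overlapping bounds for both.

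The autonomic receptors differed in abundance. ADRA2A (ENSG00000150594.5, chromosome 10, 112836790 to 112840658), through which adrenaline and noradrenaline restrain insulin release, had 4.76 FPKM in live cells (4.54 to 4.99) and 3.98 in processed cells (3.77 to 4.20). The bounds were separate, and the ratio was 0.836 (0.778 to 0.899) from 1766 and 1364 equivalent fragments. Relative to the median ratio of 0.932, the ratio of ADRA2A was 0.897. CHRM3 (ENSG00000133019.7, chromosome 1, 239549865 to 240078750), through which vagal acetylcholine promotes insulin release, had 0.625 FPKM (0.405 to 0.845) and 0.780 FPKM (0.574 to 0.985). Its bounds overlapped, and the ratio of 1.25 had a range from 0.803 to 1.93, from 32 and 58 equivalent fragments. ADRA2A exceeded CHRM3 by 7.62-fold in live and 5.11-fold in processed cells.

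The order of the receptors was largely shared. In live cells it ran GIPR, SSTR2, ADRA2A, SSTR1, SSTR5, GLP1R, CHRM3, SSTR3, FFAR1 and GCGR, and in processed cells the first 5 places were the same. Neighbours could not be separated by their bounds for ADRA2A and SSTR1 in live cells and for SSTR2 and ADRA2A in processed cells. The 5 receptors from GLP1R to GCGR formed a group between 0.578 and 0.715 FPKM in live cells in which no neighbours had separate bounds. In processed cells this group spread out, with GLP1R at 0.775 FPKM above SSTR3 at 0.572 FPKM and SSTR3 above GCGR at 0.328 FPKM, each with separate bounds. SSTR5 and CHRM3, and CHRM3 and GLP1R, overlapped there. The distance from GIPR to SSTR2 was 1.69-fold in live and 3.34-fold in processed cells.

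The receptors with separate bounds were also set beside genes of like abundance. For the 4925 genes whose mean FPKM was 3 to 10, the quartiles of the log2 ratio without a pseudocount were -0.52 and 0.33 and its 5th percentile was -1.19. SSTR2 at -0.79 lay between the 5th percentile and the lower quartile, and SSTR1 at -0.50 and ADRA2A at -0.26 lay between the quartiles. In this band 43.3% of genes had separate bounds with the lower value in processed cells. For the 4942 genes whose mean FPKM was 10 to 30, the upper quartile was 0.18 and GIPR stood at 0.20, and 25.9% of these genes were higher with separate bounds. Of the 5 receptors whose mean FPKM was 0.1 to 1, only FFAR1 had separate bounds, whereas 71.3% of the 6162 genes in that band did. The bounds of FFAR1 are both 0 in processed cells, and the 71.3% also includes genes listed at 0 in 1 library.

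**Figure D3:**
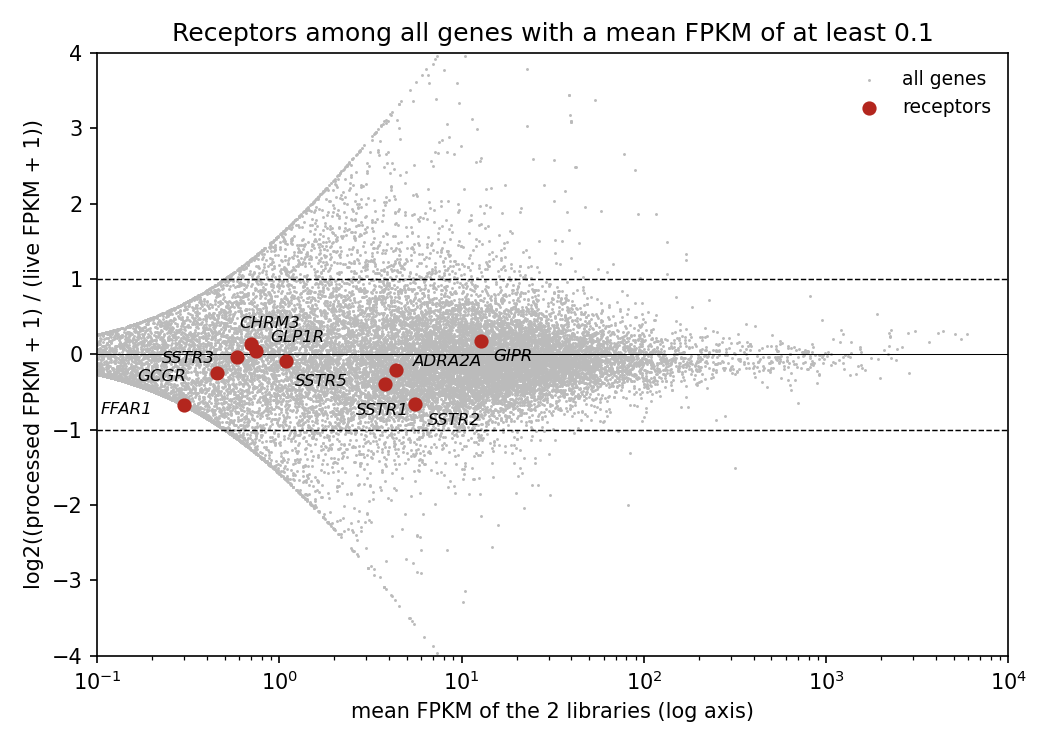
Log2 ratio with a pseudocount of 1 (vertical axis) against the mean FPKM of both libraries (log axis) for all genes from a mean of 0.1 FPKM upward (gray, those within the axis limits) and the 10 receptors (red). The dashed lines mark 2-fold, and the 5 receptors that reached 1 FPKM lie between them, with SSTR2 the lowest at -0.66. The 5 receptors below 1 FPKM in both libraries, FFAR1 among them, can only lie between the lines on this scale.

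The partners of these receptors were examined in 7 lists. Counts refer to genes that reached 1 FPKM in either library, and the share of all such genes past 2-fold was 12.8%. Counts of separate bounds are read against the 28.1% of all such genes that were higher and the 43.7% that were lower in processed cells. Among ligands, somatostatin (SST) had 243 FPKM in live and 266 in processed cells, glucagon (GCG, whose precursor also yields GLP-1) 135 and 131 FPKM, and insulin (INS) 98.3 and 121 FPKM. Past 2-fold were 2 of 8 ligand genes, CCK, a gut peptide, from 4.79 to 11.2 FPKM and ADCYAP1, which encodes the neuropeptide PACAP, from 1.76 to 0.00340 FPKM. With separate bounds, 4 of the 8 were higher and 1 was lower in processed cells. For the pathway of the glucagon family receptors, the Gs subunit GNAS had 855 and 806 FPKM, and the adenylyl cyclases ADCY6 and ADCY5 had 40.2 and 40.3 FPKM and 5.88 and 6.83 FPKM. Past 2-fold were 2 of 9 genes, ADCY9, from 1.29 to 3.82 FPKM, and GNAL, from 4.03 to 1.14 FPKM, the median log2 ratio was 0.00, and 3 of the 9 were higher and 3 lower with separate bounds. For the Gi pathway shared by somatostatin receptors and ADRA2A, the median over 6 genes was -0.36, and 4 of the 6 were lower and 0 higher with separate bounds. GNAI2 had 80.5 and 73.9 FPKM, GNAI3 30.9 and 22.2 FPKM, and GNAI1 16.2 and 17.0 FPKM. GNAO1, the Go subunit of neurons and endocrine cells, was past 2-fold, at 10.1 FPKM in live and 4.33 in processed cells. For the Gq pathway of FFAR1 and CHRM3, GNAQ had 16.4 and 11.8 FPKM, GNA11 14.7 and 13.3 FPKM and the kinase PRKCD 16.7 and 18.3 FPKM. PRKCB was the only 1 of 12 genes past 2-fold, from 1.60 to 0.265 FPKM, the median was -0.13, and 3 of the 12 were higher and 6 lower with separate bounds.

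Downstream of cyclic AMP, 11 of 16 genes had separate bounds with the lower value in processed cells and 1 of 16 with the higher, beside 43.7% and 28.1% of all genes, and the median log2 ratio was -0.25. The kinase subunits PRKAR1A and PRKACA had 87.2 and 62.7 FPKM and 31.9 and 29.1 FPKM, and the transcription factor CREB1 had 21.6 and 11.3 FPKM. PDE1C, a phosphodiesterase, was past 2-fold, from 1.28 to 0.118 FPKM. Of 16 genes in the list for desensitization, 0 were past 2-fold, 9 were lower and 4 higher with separate bounds, and the median was -0.21. This list also held RAMP1 and RAMP2, which encode receptor activity-modifying proteins and are not desensitization genes. RAMP1 was among the 4 higher genes, at 10.5 and 14.9 FPKM, and RAMP2 among the 9 lower, at 5.46 and 2.53 FPKM. RGS2, which speeds the shut-off of G proteins, had 30.7 and 35.0 FPKM, and the receptor kinase ADRBK1 26.7 and 24.1 FPKM. The arrestin ARRB2 had 18.5 FPKM in processed cells, with a log2 ratio of -0.10.

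**Figure D4:**
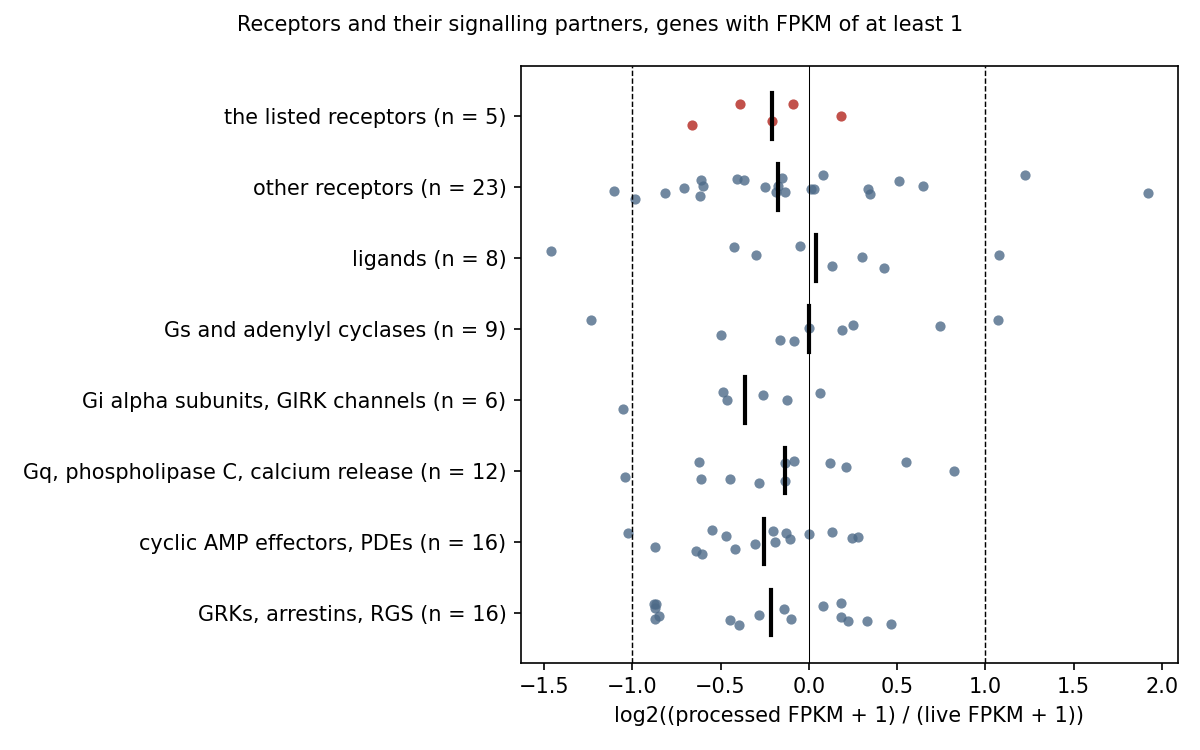
Log2 ratio with a pseudocount of 1 (horizontal axis) of each gene that reached 1 FPKM in either library, for the listed receptors (red, 5 genes) and the 7 lists of partners (blue), with black bars at medians and dashed lines at 2-fold. Medians run from -0.36 for Gi subunits and GIRK channels to 0.04 for ligands, and points fall on both sides of 0 in every list.

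Among 50 other receptors of islet and gut endocrine cells, 23 reached an FPKM of 1, with a median log2 ratio of -0.17. With separate bounds, 10 of the 23 were lower and 4 higher in processed cells. The most abundant were GPRC5C at 70.0 FPKM in live and 70.6 in processed cells, the secretin receptor SCTR at 23.2 and 20.8 FPKM, and GPRC5B at 20.9 and 21.4 FPKM, all above GIPR. Past 2-fold were 3 of the 23, namely the muscarinic receptor CHRM2, from 0.0712 to 3.05 FPKM, the galanin receptor GALR2, from 0.643 to 2.84 FPKM, and the lysophosphatidic acid receptor LPAR1, from 5.65 to 2.10 FPKM. CHRM2 was thus below CHRM3 in live and above it in processed cells. The receptors closest in level were found by distance on log2(FPKM + 1) over the 2 libraries. Nearest to ADRA2A was its relative ADRA2C (distance 0.06), at 4.55 and 3.87 FPKM, followed by the adenosine receptor ADORA2A (0.14), at 5.10 and 3.60 FPKM. Nearest to SSTR2 were the neuropeptide Y receptor NPY1R (0.26), at 7.46 and 3.28 FPKM, and the cannabinoid receptor CNR1 (0.31), at 7.14 and 5.30 FPKM. For GIPR they were GPR56 (0.56), at 15.1 and 9.60 FPKM, and GPRC5B (0.98). For FFAR1 they were GPR119 (0.11), a lipid receptor that had 0.723 FPKM in live cells and was listed at 0 in processed cells, and ADRA1B (0.16), at 0.650 and 0.110 FPKM.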

How the data were processed

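RNA-seq was analyzed from 1 live and 1 processed library of paired 80 nt reads. The authors aligned reads to GRCh37/hg19 with STAR 2.2.0c guided by GENCODE version 14 and deposited 1 FPKM value per gene, with bounds and a status, from Cuffdiff (the paper's methods) or Cufflinks (the submitters' processing notes), version 2.0.2. Read counts were not used here.

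Libraries were joined by gene identifier with pandas 2.3.3 and numpy 2.4.6 in Python 3.11.15, and figures drawn with matplotlib 3.10.9. Log2 ratios used a pseudocount of 1 unless stated. Ranges of ratios took the bounds as 2 SD. Gene type and exon length came from GENCODE release 44 on GRCh37, which held 94.5% of identifiers and 9 of the 10 receptors (all but SSTR3). The calculations were tested on simulated counts of genes with at least 10 FPKM in live cells, with counting error only. Among the receptors only GIPR reached that level, so the test does not cover the others. The receptors and lists were chosen with earlier results of these data known. All 10 receptors are named. From each of 7 partner lists the 3 highest in live cells and those past 2-fold (up to 3 each way) are named, with the 2 receptors nearest to the leading receptor of each of 4 groups. Of 10 marker lists, 1 gene was not matched. Genes overlapping or beside a receptor, macrophage markers, CHGA, RAMP1 and RAMP2 were named after their values were seen. Depth was estimated from single-exon genes of at least 2000 nt. Intervals cover counting and assignment error, not replicate error.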

Additional observations from a re-analysis of the deposited data

How the results depend on the processing

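No paired analysis was possible because each condition has 1 library. The count of 0 receptors past 2-fold became 1 with a pseudocount of 0.1 and 1 when both libraries were rescaled to the same sum, which makes FPKM larger against the pseudocount. It was FFAR1 each time, the receptor listed at 0 in processed cells. With a pseudocount of 1, receptors below 1 FPKM in both libraries cannot pass 2-fold. The count was 0 without a pseudocount among the 9 receptors above 0 in both libraries, with scaling by the median ratio, among receptors with an FPKM of at least 1, and without FFAR1, an alternative chosen after seeing the data. The count of 5 receptors with separate bounds was also 5 under both scalings, 4 among the 5 receptors that reached an FPKM of 1 and 4 without FFAR1. The median log2 ratio ranged from -0.21 to -0.08 over all alternatives. Of 39 single-receptor ratios under an alternative, 13 moved by more than 1 SD of counting error or belonged to FFAR1, and 1 changed sign, SSTR3 at 0.01 with scaling by the median ratio. Replicate error is not available, so differences of the size seen for SSTR2 cannot be set against those between libraries of the same condition.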
